A study of Homo sapiens with 12 samples.

Results

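The untreated state of EA.hy926 was described from 3 control libraries of the 12 in the series, chosen by their control label alone, and no comparison with a treatment was made. EA.hy926 is a human hybrid line, the product of a fusion between endothelium of the umbilical vein and a thioguanine-resistant clone of the lung carcinoma line A549. The series measured messenger RNA by sequencing in 4 groups of 3 libraries: control, hypoxia, TEPA and TEPA+hypoxia, where TEPA is a copper chelator. The control cells received no TEPA and no low-oxygen incubation, and they carried no engineered change in the labels. All groups shared the medium (DMEM with 10% fetal bovine serum), 5% CO2 and 37 °C. The libraries were made from 1 µg of total RNA each, after poly(A) selection, with a directional kit. The group is therefore 1 hybrid line in culture, and the labels do not say whether the 3 libraries came from separate dishes. Every SD below measures the spread between these 3 libraries and may be technical.

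Endothelial cells line blood vessels. They are held together by VE-cadherin and PECAM-1, make nitric oxide, and keep the blood from clotting and leukocytes from sticking until they are activated. A lung adenocarcinoma cell is an epithelial cell, which is usually marked by keratins, by E-cadherin and EpCAM and, where it keeps the features of its tissue, by NKX2-1 and the surfactant proteins. EA.hy926 is widely used in place of primary endothelium, so the baseline describes which endothelial and epithelial marker transcripts the line holds. The series has no library of either parent. Whether a marker missing from the hybrid was lost there or was already missing in a parent was therefore not tested.

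The deposited table held whole-number counts for 51141 gene symbols. Control 1, 2 and 3 had 21049891, 16998936 and 16693713 counts, with at least 1 count in 20106, 19701 and 19431 symbols. Levels are given as CPM (the count per 1000000 counts of the library) with the SD over the 3 libraries, and CPM per kb divides them by the exon length of the gene, which is needed before levels of different genes are compared. At these depths the floor of 3 counts equals 0.143, 0.176 and 0.180 CPM, and floors cover counting error only. Genes of the mitochondrial genome took 4.68%, 4.88% and 4.17% of the counts, and ribosomal protein genes 4.28%, 3.81% and 4.65%.

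The 3 libraries were close to one another but were not copies of 1 library. Across genes, log2 CPM correlated between pairs at 0.995 (control 1 and 2), 0.994 (1 and 3) and 0.989 (2 and 3), where genes are not independent replicates. Of 12373 expressed genes, 18, 34 and 103 differed by more than 2-fold in the same 3 pairs. Counts varied by 5.04, 7.53 and 15.7 times what sampling alone gives (chi-square per degree of freedom). Among the 8814 genes at a mean of 10 CPM or more, the median coefficient of variation (SD over mean) was 7.53%, against 3.41% from counting. Controls 2 and 3 stood on opposite sides of the mean by the base composition and the length of the transcript. The mean is that of the same 3 libraries, so where control 1 lies near it, controls 2 and 3 must oppose each other. Whether 1 of them or both departed cannot be told. The Spearman correlation of a gene's log2 deviation with GC content was -0.229 in control 1, -0.546 in control 2 and 0.590 in control 3, over 8660 genes of the same libraries. With transcript length it was 0.0480, 0.570 and -0.538 in the same order, so that both features moved with the deviations of controls 2 and 3 to a like degree. From the bin of genes poorest in GC to the richest, of 10 bins, the median log2 deviation ran from 0.11 to -0.11 in control 2 and from -0.15 to 0.12 in control 3. Differences of this size between controls therefore accompanied GC content and length, and what part of a gene's spread they make up was not tested.

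**Figure D1:**
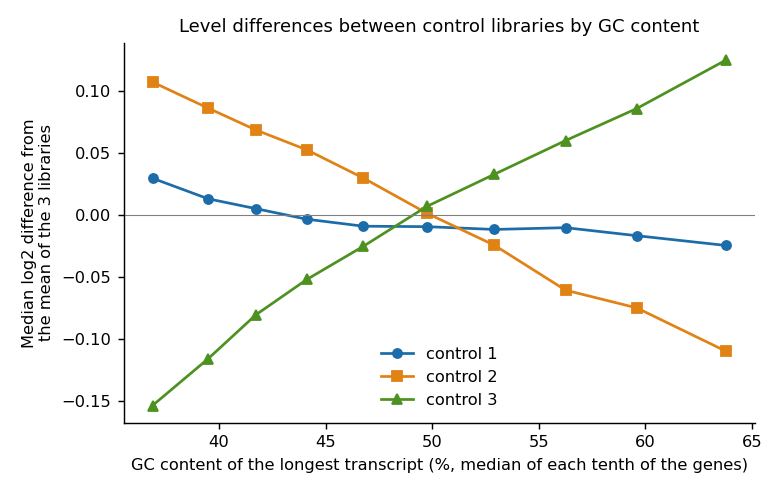
Median log2 difference of each control library from the mean of the 3 libraries (y axis) against transcript GC content in percent (x axis), for 10 equal bins of 8660 genes with 10 CPM or more. Control 3 climbs from -0.15 to 0.12, control 2 descends from 0.11 to -0.11 and control 1 lies close to 0.

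The genes whose level varied most were named by their coefficient of variation among genes of at least 10 CPM. JUP, which encodes the junction protein plakoglobin, was at 46.2, 33.2 and 76.3 CPM in control 1, 2 and 3. The others were SYNE2 (a nuclear envelope protein, 12, 18.8 and 7.97 CPM), BRCA2 (DNA repair, 13.5, 15.3 and 6.53 CPM), MBNL1 (a splicing regulator, 10.4, 14.5 and 6.65 CPM), KIAA1671 (24.2, 34.3 and 15.9 CPM) and SRCAP (a chromatin remodeller, 15.7, 22.1 and 10.4 CPM). JUP was highest in control 3, whereas the other 5 were highest in control 2 and lowest in control 3. Only 85 of the 8814 genes had a coefficient of variation above 25%.

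A symbol was called expressed at 1 CPM or more in every control library. That held for 12373 of 51141 symbols (24.2%) and for 10779 of 19211 protein-coding symbols (56.1%), and the expressed symbols took 99.8% of the counts. No library had a count for 28630 symbols (56.0%), among them 5185 coding ones (27.0%). Another 5418 symbols had counts but no more than 3 in any library, and 859 lay at 1 CPM or more in some libraries only. By mean CPM, 3986 symbols lay from 1 to 10, 6607 from 10 to 100, 2107 from 100 to 1000 and 100 at 1000 or more. The last 2 classes took 49.6% and 22.4% of the counts. Counts were thus spread over many genes: 744 symbols were needed to reach 50% of them and 5102 to reach 90%. Expressed coding genes had a median of 33.6 CPM and expressed noncoding symbols one of 4.07 CPM.

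**Figure D2:**
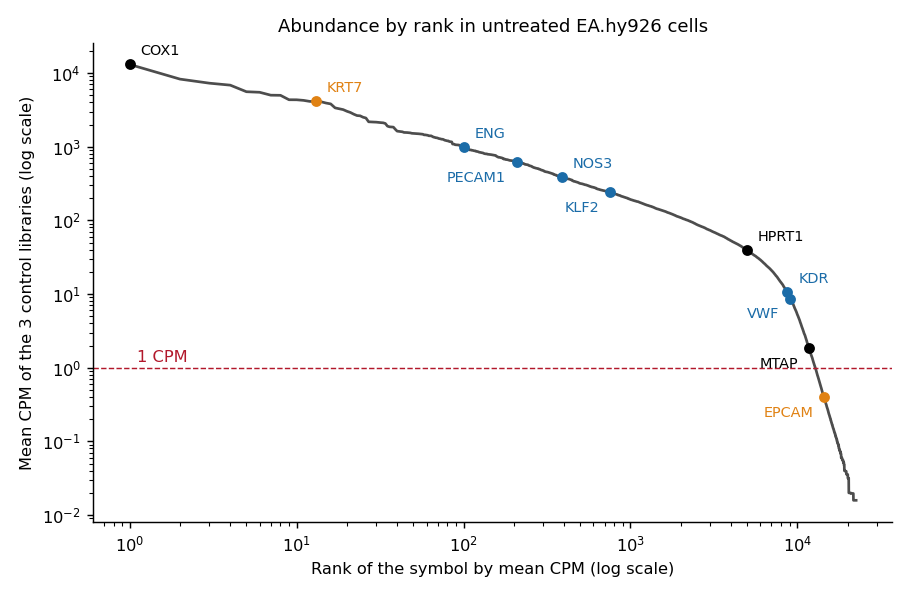
Mean CPM of the 3 control libraries (y axis, log scale) against the rank of the symbol (x axis, log scale), with 1 CPM as a dashed line and named genes as points. COX1 is at the top, and the curve falls slowly over the high ranks before it drops steeply towards and below 1 CPM.

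The most abundant symbols came from the mitochondrial genome and from genes of glycolysis, translation, matrix and the cytoskeleton. COX1, the mitochondrial gene of cytochrome c oxidase subunit I (MT-CO1, not a prostaglandin synthase), was at 13644, 13691 and 11836 CPM. It was lowest in control 3. The glycolytic enzyme gene GAPDH was at 7217, 6830.3 and 7783 CPM and the translation factor gene EEF1A1 at 7081, 6672 and 6776 CPM. Of the 20 symbols with the highest mean CPM, 5 were mitochondrial: COX1, ND4, COX3, COX2 and ATP6, subunits of the respiratory chain and of ATP synthase. Cytoskeletal genes among them were ACTB (5476 ± 71.7 CPM), ACTG1 (4979.9 ± 102 CPM), VIM (4337 ± 122 CPM), the epithelial keratin gene KRT7 (4114 ± 667 CPM), the actin crosslinker gene FLNA (3807 ± 248 CPM) and TUBA1B (3185 ± 73.3 CPM). The extracellular matrix genes EFEMP1 and THBS1 were at 4251 ± 178 and 3363 ± 240.5 CPM (SD, n = 3 libraries throughout). Also among the 20 were PKM of glycolysis, FTL (the light chain of ferritin), EEF2 of translation and the chaperone gene HSP90AA1, at 3026 to 4331 CPM. The top 20 took 10.2 ± 0.208% of the counts and the top 100 took 22.4 ± 0.229%.

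**Figure D3:**
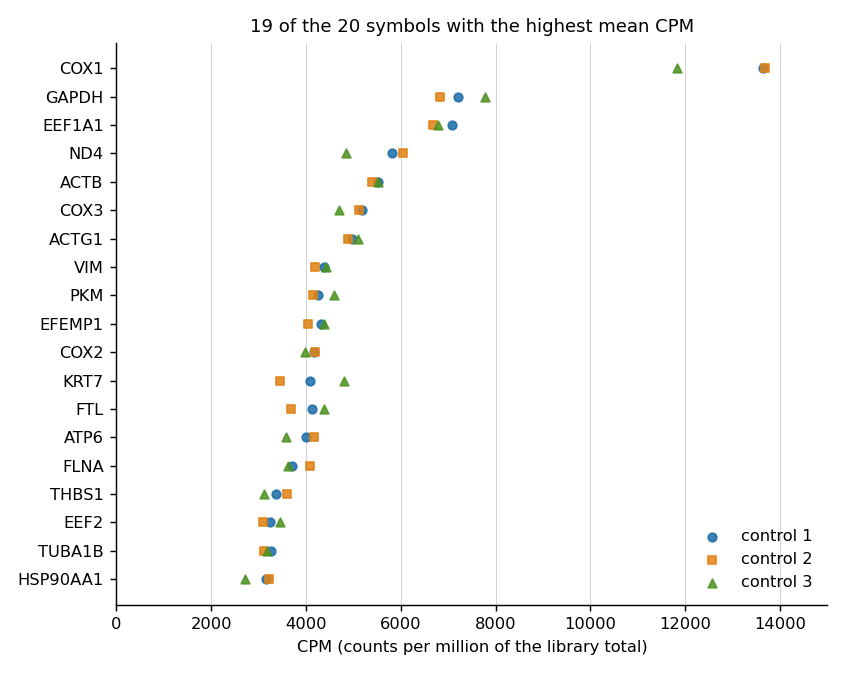
CPM (x axis, linear from 0) of 19 of the 20 symbols with the highest mean CPM, 1 point per control library. COX1 lies at 11836 to 13691 and the other 18 shown lie between 2712 and 7783.

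Correction for length moved long messages down and kept the mitochondrial genes at the top. By CPM per kb, COX1 led at 8468 ± 686, followed by ATP8 at 7508 ± 882 and COX3 at 6379 ± 332. ATP8 is only 207 bases long and overlaps ATP6, which stood at 5745 ± 443 CPM per kb. Division by so short a length makes the place of ATP8 uncertain. FTL led the nuclear genes at 4637 ± 405 CPM per kb. GAPDH stood at 2441 ± 161 CPM per kb. TMSB10, a short message for an actin-binding peptide, stood at 2040.4 ± 347 CPM per kb and KRT7 at 1005 ± 163. Of the top 20 by CPM, 11 were also among the top 20 by CPM per kb. The exon length was the union over all annotated transcripts, which lowers the value of genes with many isoforms. With the longest transcript in its place, 18 of the top 20 by CPM per kb were shared.

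Levels were set beside the promoter sequence, which the choice of libraries did not use. RefSeq promoters on GRCh38.p14, from 250 bases before to 50 after the annotated start, matched 15286 of the 19211 coding symbols. In most of the genome CG dinucleotides are scarce, and promoters that keep them are called CpG islands. The CpG ratio, the number of CG pairs over that given by the C and G content, had a median of 0.352 over genes at 0 counts and 0.605 over those above 0 and under 1 CPM. It was 0.802 from 1 to 10 CPM, 0.855 from 10 to 100, 0.884 from 100 to 1000 and 0.833 at 1000 or more. A ratio under 0.4 was found for 54.6% of promoters of genes at 0 counts and for 8.00% of those of expressed coding genes. Among the 24 expressed endothelial markers with a promoter, 8 were under 0.4. The counts were 713 of 8911 over all expressed coding genes and 1 of 163 expressed genes of the core machinery of the cell. Low ratios were not particular to endothelial markers, with 5 of 15 for expressed clotting genes and 3 of 7 for epithelial markers. Against these stood 1 of 15 for endothelial transcription factors and 2 of 27 for matrix genes. The 250 bases before the start of 2 broadly used genes (GAPDH, chr12:6535014-6535263, plus strand, 22 CG; EEF1A1, chr6:73521033-73521282, minus strand, 20 CG) and of 2 endothelial genes (the receptor TIE1, chr1:43300732-43300981, plus strand, 1 CG; the TGF-beta coreceptor ENG, chr9:127854659-127854908, minus strand, 7 CG) are shown as examples of high and low CG content, from 5′ to 3′ with each CG in capitals.
GAPDH: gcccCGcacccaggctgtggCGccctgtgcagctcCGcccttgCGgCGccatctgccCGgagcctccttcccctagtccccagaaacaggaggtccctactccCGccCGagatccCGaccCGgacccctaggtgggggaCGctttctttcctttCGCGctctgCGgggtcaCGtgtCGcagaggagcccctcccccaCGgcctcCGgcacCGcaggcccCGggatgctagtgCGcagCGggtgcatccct
EEF1A1: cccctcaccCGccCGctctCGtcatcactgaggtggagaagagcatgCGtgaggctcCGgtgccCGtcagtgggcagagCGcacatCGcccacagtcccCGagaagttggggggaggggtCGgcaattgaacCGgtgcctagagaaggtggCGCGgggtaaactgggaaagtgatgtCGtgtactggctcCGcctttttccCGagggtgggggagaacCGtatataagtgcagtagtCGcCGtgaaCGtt
TIE1: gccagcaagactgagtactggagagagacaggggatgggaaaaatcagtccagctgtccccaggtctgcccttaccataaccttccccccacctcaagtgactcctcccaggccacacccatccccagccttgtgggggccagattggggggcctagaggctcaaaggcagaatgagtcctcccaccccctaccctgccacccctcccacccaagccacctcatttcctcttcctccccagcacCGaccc
ENG: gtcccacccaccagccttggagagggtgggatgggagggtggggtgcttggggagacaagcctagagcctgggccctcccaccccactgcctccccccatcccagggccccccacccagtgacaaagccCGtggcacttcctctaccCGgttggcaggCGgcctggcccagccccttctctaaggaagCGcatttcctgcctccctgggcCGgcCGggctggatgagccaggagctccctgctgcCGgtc
The CpG ratio over the 300 bases was 0.761 for GAPDH, 0.891 for EEF1A1, 0.0391 for TIE1 and 0.231 for ENG, while ENG and TIE1 were at 996 ± 149 and 431 ± 32.1 CPM. ECSCR, another endothelial surface gene, had a ratio of 0.112 at 773 ± 78.9 CPM.

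The letters TATAAA, the core of the TATA box, were looked for on both strands of the 300 bases and were found in 9.58% of the 15286 promoters. The share was 17.9% for genes at 0 counts, 4.32% from 10 to 100 CPM and 11.6% at 1000 CPM or more. Read on the gene's own strand between 40 and 15 bases before the start, where a TATA box works, it was found in 3.66% of all promoters, 7.58% at 0 counts, 1.03% from 10 to 100 CPM and 8.70% (6 of 69 promoters) at 1000 CPM or more. Both ends of the range therefore held more such promoters than the middle. A match is a string of letters and not a measured site. CTGF (chr6:131951373-131951622, minus strand), a matricellular growth factor gene at 1262 ± 57.4 CPM, and the metallothionein gene MT2A (chr16:56608334-56608583, plus strand), at 791 ± 102 CPM, are shown with SELE (chr1:169734080-169734329, minus strand), the E-selectin gene, which had no count. TATAAA is in capitals.
CTGF: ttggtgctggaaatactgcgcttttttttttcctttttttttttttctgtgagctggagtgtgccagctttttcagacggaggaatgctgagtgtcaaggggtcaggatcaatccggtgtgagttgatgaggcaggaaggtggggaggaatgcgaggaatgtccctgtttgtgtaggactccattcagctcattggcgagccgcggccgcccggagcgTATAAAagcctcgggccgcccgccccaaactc
MT2A: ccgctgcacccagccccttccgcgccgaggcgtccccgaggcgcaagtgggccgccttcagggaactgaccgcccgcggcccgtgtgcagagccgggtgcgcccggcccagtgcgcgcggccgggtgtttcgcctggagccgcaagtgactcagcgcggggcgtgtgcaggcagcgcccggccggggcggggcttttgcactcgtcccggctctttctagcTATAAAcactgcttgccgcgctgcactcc
SELE: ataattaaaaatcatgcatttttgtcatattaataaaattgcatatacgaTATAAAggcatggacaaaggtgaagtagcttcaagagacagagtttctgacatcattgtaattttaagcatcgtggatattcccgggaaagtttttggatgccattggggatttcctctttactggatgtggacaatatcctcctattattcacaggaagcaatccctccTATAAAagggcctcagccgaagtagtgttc
The first T lay 32 bases before the start in CTGF, 29 in MT2A and 30 in SELE, which had another match 200 bases before it.

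Most endothelial markers were expressed. Of 41 endothelial markers, 32 were expressed (78.0%, against 56.1% of all coding symbols), with a list median of 94.4 CPM. The summed level of the list was 9772 to 10706 CPM. Some members, such as CAV1, ECE1 and NOTCH1, are also used by other cell types, so the list is not specific to endothelium. Among junction and adhesion genes, ENG was at 976, 858 and 1154 CPM and CDH5 (VE-cadherin) at 678, 693 and 752 CPM. ICAM2, a ligand for leukocyte integrins, was at 631, 593 and 671 CPM and PECAM1 at 612, 622 and 629.9 CPM. PECAM1 and CDH5 differed little between libraries, whereas ENG was lowest in control 2 and highest in control 3. A level is the mean over all cells of a dish, so fewer cells with a transcript and less transcript per cell cannot be told apart.

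Receptors were uneven. TIE1 was at 422, 404 and 466 CPM, ACVRL1 (the receptor ALK1) at 278 ± 20.2, NOTCH1 at 163 ± 11.2 and the VEGF and semaphorin coreceptor gene NRP2 at 132 ± 8.86 CPM. KDR, the main VEGF receptor, was at only 10.5, 12.5 and 8.51 CPM. Per length KDR stood at 1.60 ± 0.307 CPM per kb against 64.3 ± 4.79 for TIE1, a gap far wider than either SD. FLT4, the lymphatic VEGF receptor, was at 0.0671 CPM, at or under the floor in every library. Among secreted proteins and enzymes, CAV1 of caveolae was at 1496 ± 46.5 CPM, the endothelin-converting enzyme gene ECE1 at 1247 ± 21.2, ECSCR at 773 ± 78.9 and MMRN2 at 493 ± 47.4 CPM. NOS3, the endothelial nitric oxide synthase, was at 381, 391 and 379.7 CPM and varied little. VWF, the platelet-binding protein of Weibel-Palade bodies, was low at 8.60, 6.65 and 10.8 CPM, or 0.835 ± 0.199 CPM per kb against 64.5 ± 1.02 for NOS3. ANGPT2, stored in the same bodies, was at 0.119 CPM. The 7 markers with no count in any library were CLDN5 and JAM2 of tight junctions, EMCN, the gap junction genes GJA4 and GJA5, the apelin receptor gene APLNR, and ACE.

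Of 29 endothelial transcription factors 27 were expressed (93.1%, against 56.1% of all coding symbols), with a median of 20.05 CPM. This share was above that of the endothelial markers only at the low threshold of 1 CPM. At a mean of 10 CPM or more lay 19 of the 29 factors and 28 of the 41 markers. At 100 CPM or more lay 8 factors and 19 markers. The highest by CPM were ELK3 (309 ± 34.4), EPAS1 (HIF-2 alpha, 300.4 ± 20.8), the shear-responsive factor KLF2 (239 ± 21.1) and ETS1 (218 ± 35.9). ERG, which maintains endothelial identity, was at 169, 177 and 181 CPM in control 1, 2 and 3. TAL1, a factor of blood and early vessel lineages, had no count, and HEY2, an arterial Notch target, was at 0.0709 CPM. Promoters of this list were rich in CpG, with a median ratio of 0.934 over 17 promoters, against 0.526 over 27 promoters of the endothelial markers.

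Simple-epithelial keratins were abundant, whereas most other epithelial markers were not expressed. Of 43 epithelial markers 16 had no count, 12 had counts but were not expressed and 15 were expressed. The expressed share was 34.9%, against 56.1% of all coding symbols, and the median of the 43 was 0.0871 CPM. Their summed level was nevertheless 6294 to 8127 CPM, of which keratins made up 5827 to 7621. KRT7 was at 4090.4, 3459.7 and 4793 CPM, KRT18 at 1323, 1151 and 1341 and KRT8 at 1189, 1028 and 1265, and each was lowest in control 2 and highest in control 3. KRT7, KRT8 and KRT18 form the filaments of simple epithelia. KRT80, a type II keratin, was at 164 ± 18.4 CPM. Keratins of stratified epithelia were at or near 0: KRT5, KRT6A, KRT6B and KRT16 had no count, and KRT13 and KRT14 were at 0.0317 and 0.0158 CPM. At the surface CDH1 (E-cadherin) had no count and EPCAM was at 0.428, 0.412 and 0.359 CPM, or 9, 7 and 6 counts. The junction scaffold gene TJP1 (169.9 ± 17.9 CPM), which endothelial cells also use and the plaque gene PKP2 (73 ± 6.24 CPM) were expressed, and so was JUP, shown above to vary most. CLDN2 and CLDN3 had no count, and CLDN4 and CLDN7 were at 0.130 and 0.0871 CPM.

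Markers of lung epithelium were mostly at 0. Of 32 lung and airway markers, 6 were expressed (18.8%, against 56.1% of all coding symbols) and 18 had no count. Among the latter were NKX2-1, the lung lineage factor, and the surfactant genes SFTPA1, SFTPA2, SFTPC and SFTPD. SFTPB had 3, 2 and 0 counts. The expressed ones were LPCAT1 (96.4 ± 3.26 CPM), a lipid enzyme found in many tissues besides the alveolus, GATA6 (28.1 ± 0.879 CPM), which endothelial cells also express, ABCA3 (5.68 ± 0.371 CPM), HOPX (3.32 ± 0.145 CPM), FOXA1 (2.87 ± 0.395 CPM) and AGER (2.04 ± 0.259 CPM). NAPSA, an aspartic protease of alveolar cells, straddled the threshold at 0.998, 1.06 and 1.74 CPM. SFTA1P, a transcribed pseudogene related to surfactant-associated genes, was at 97.7, 102 and 103 CPM, which were close to one another.

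**Figure D4:**
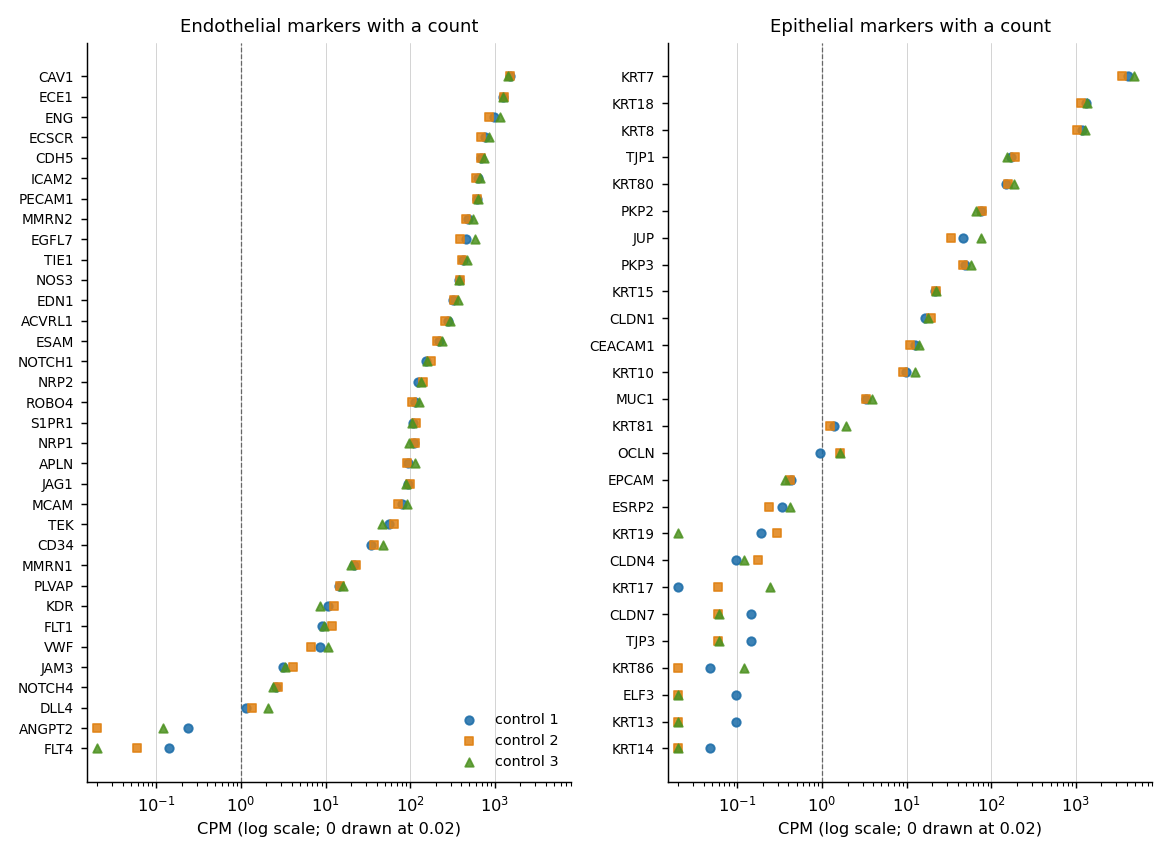
CPM (x axis, log scale, 0 drawn at 0.02) in each control library for the endothelial markers (left panel) and the epithelial markers (right panel) that have a count and are reported here, with 1 CPM as a dashed line. Most endothelial markers lie right of the line, while KRT7, KRT18 and KRT8 lie above 1000 CPM and 12 of the other epithelial markers have at least 1 library left of it.

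Genes of the epithelial-to-mesenchymal transition were listed after the values had been seen. VIM was at 4386, 4198 and 4427 CPM, FN1 (fibronectin) at 650.1 ± 78 and CDH2 (N-cadherin, also made by endothelium) at 196 ± 19.3 CPM. Among repressors of CDH1, ZEB2 was at 45.2, 60.2 and 38.1 CPM, SNAI1 at 37.8, 36.6 and 41.6 and ZEB1 at 1.43, 2.76 and 0.599, while SNAI2 and TWIST1 had no count. SNAI1 was even across libraries, and ZEB2 and ZEB1 were highest in control 2 and lowest in control 3.

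Markers of other cell types were mostly not expressed. Of 22 fibroblast and mural markers, 5 were expressed (22.7%), and COL3A1, DCN and LUM, matrix genes that define fibroblasts, had no count, with COL1A1 at 0.732 ± 0.0285 CPM. The expressed members were RGS5, a pericyte gene, at 80.3, 78.7 and 80.4 CPM, FAP (fibroblast activation protein) at 51.1, 52.2 and 45.8 CPM, and, below 10 CPM on average, COL5A1, ACTA2 and TAGLN. RGS5 and FAP were the 2 members above 10 CPM on average, and both were even across libraries. Of 22 leukocyte markers, 5 were expressed, and PTPRC (CD45), CD3D, CD3E, CD8A and CD2 had no count. CD68, a lysosomal protein gene, made up most of the summed 194 to 205 CPM of that list, at 158 ± 5.75 CPM, and CD33 was at 24.3 ± 1.43 CPM. No erythroid or platelet marker (0 of 12) and no muscle marker (0 of 8) was expressed, and of 13 neural markers TUBB3 (359 ± 20.5 CPM), ENO2 (12 ± 1.48 CPM) and SYT1 (1.98 ± 0.425 CPM) were. Of 29 plasma protein genes, which tumours of lung and liver can express, 3 were expressed, and ALB, TTR and SERPINA1 had no count. These lists all lay below the 56.1% of all coding symbols.

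**Figure D5:**
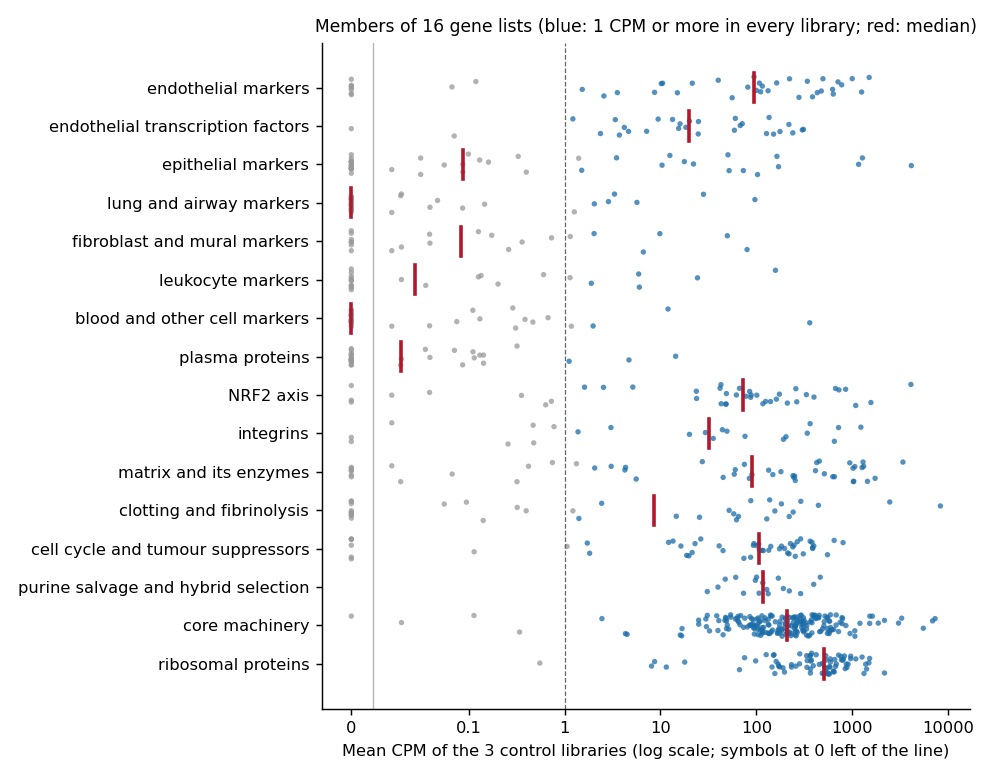
Mean CPM (x axis, log scale, symbols at 0 left of the grey line) of the members of 16 gene lists, blue where 1 CPM or more in every library, with the list median in red. Medians lie at 94.4 CPM for endothelial markers, 0.0871 for epithelial markers and 0 for lung and airway markers.

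Of 34 genes that form, limit or dissolve clots 19 were expressed (55.9%), close to the 56.1% of all coding symbols. By role, 9 of 12 anticoagulant, 8 of 11 fibrinolysis and 2 of 11 procoagulant genes were expressed. Fibrinolysis genes at a high level included the plasminogen-binding pair ANXA2 (2451 ± 84.5 CPM) and S100A10 (290.0 ± 7.61 CPM) and PLAU, which encodes urokinase (219 ± 9.21 CPM). Per length PLAU stood at 74.4 ± 3.12 CPM per kb. Among anticoagulant genes, the protein C receptor gene PROCR was at 449, 403 and 475 CPM and THBD (thrombomodulin) at 249.6, 282 and 193. The ectonucleotidase gene NT5E was at 182 ± 14.3 CPM. The thrombin receptor gene F2R, counted among the 12 but not itself an anticoagulant, was at 156 ± 18.4 CPM. THBD was lowest in control 3. The 2 expressed procoagulant genes were VKORC1 and GGCX, which activate vitamin K-dependent proteins in many tissues. F3, tissue factor, was at 0.190, 0.765 and 0.240 CPM, and F2, F7, F9 and F10 had no count.

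Of 49 matrix genes 36 were expressed (73.5%, against 56.1% of all coding symbols), and their sum was 20059 to 20950 CPM. The basement membrane chains LAMB1 (1435 ± 28.5 CPM), LAMC1 (1290.5 ± 111) and LAMA4 (1033 ± 30.5), which make up a laminin of vessels, and HSPG2 (perlecan, 1014 ± 53.7) all lay above 1000 CPM. Besides THBS1, the adhesion proteins TGFBI (1309 ± 43 CPM), CTGF (1262 ± 57.4) and CYR61 (1061 ± 70.4) did so too. The basement membrane genes were not uniformly high: of 19, 9 lay at a mean of 100 CPM or more. Collagen genes among the lower ones were COL4A1 (58.7 ± 4.76 CPM), COL4A2 (5.58 ± 1.15) and COL18A1 (4.26 ± 0.644). Among proteases and inhibitors, gelatinase MMP2 was at 1710.1, 1603 and 1857 CPM and its inhibitor TIMP3 at 1022 ± 38.8 CPM, and collagenase MMP1 was at 939 ± 105 and TIMP2 at 425 ± 28.4 CPM. Gelatinase MMP9 was at 0.0196 CPM, and MMP3, ELN (elastin) and VCAN (versican) had no count. Of 22 integrin genes 15 were expressed (68.2%, against the same 56.1%). The fibronectin receptor chains ITGA5 and ITGB1 were at 1222, 1231 and 1226 CPM and 745, 786 and 621 CPM, or 162 ± 0.604 and 119 ± 14.3 CPM per kb. ITGA3 (649 ± 18.8 CPM), ITGA6 (338 ± 59.2), ITGAV (203 ± 38.4) and ITGB5 (363 ± 19.5) followed, and the leukocyte chain ITGAL had no count.

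Of 43 inflammatory adhesion, cytokine and receptor genes 25 were expressed (58.1%), near the 56.1% of all coding symbols. Of 5 adhesion genes among them 3 were expressed. SELE (E-selectin) and VCAM1, which activated endothelium displays, had no count, ICAM1 was at 14.5, 14.1 and 14.9 CPM and SELP (P-selectin) at 23, 19.8 and 27.2. Of 23 cytokine genes 11 were expressed (47.8%), with MIF at 281 ± 53.8 CPM, IL18 at 46.1 ± 1.78, CCL2 at 36.8 ± 4.90 and CXCL8 at 7.13, 10.4 and 14 CPM, while TNF, CXCL10 and CXCL12 had no count. Receptors and signalling genes were expressed in 11 of 15 (73.3%), with TNFRSF10B at 326 ± 17.7 CPM, TNFRSF1A at 313 ± 32.8, IL6ST at 247, 299 and 179 and TLR4, the endotoxin receptor, at 162, 177 and 148. IL6ST was lowest in control 3. IL1R1 and TLR2 had no count. Of 27 antigen presentation genes 15 were expressed (55.6%), again near the 56.1% of all coding symbols. Class I presentation was expressed in 13 of 16 genes, with CALR (856 ± 36.5 CPM), PDIA3 (545 ± 19.6), B2M (410.4 ± 13.7) and HLA-E (226 ± 23.4) highest by CPM. Per length HLA-B stood at 0.946 ± 0.220 CPM per kb, against 16.3 ± 2.51 for HLA-C, and reads of these similar genes may be assigned unevenly. Of 11 class II genes 2 were expressed, CTSS and HLA-DPA1, and HLA-DRA was at 0.0709 CPM.

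Of 47 growth factors and receptors 33 were expressed (70.2%, against 56.1% of all coding symbols). Receptors were led by EPHA2 (570.3 ± 18 CPM), the venous ephrin receptor gene EPHB4 (299, 279.8 and 366 CPM), AXL (244 ± 32.7) and the transferrin receptor gene TFRC (231 ± 21.5). EPHB4's arterial ligand gene EFNB2 was at 0.0750 CPM. FGFR2 and FGFR3 had no count, and ERBB3 and ERBB4 were at 0.299 and 0.3 CPM. Among ligands, MDK (midkine) was at 235 ± 39.8 CPM, ANGPTL4 at 123 ± 7.59, GDF15 at 100.3 ± 14.9 and HBEGF at 84.1 ± 6.11 CPM. IGF1, IGF2 and HGF had no count.

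The NRF2 pathway defends against oxidants, with KEAP1 as the inhibitor of NRF2 (NFE2L2), and A549 is known for a mutated KEAP1. Of 42 genes 34 were expressed (81.0%, against 56.1% of all coding symbols), and all 7 regulators were. KEAP1 was at 158, 154 and 172 CPM and NFE2L2 at 99.8, 107 and 96. Targets were led by FTL, FTH1 (1559.5 ± 65.5 CPM), PRDX1 (1083 ± 53.8) and NQO1 (841, 839.8 and 869 CPM). Of the 8 members not expressed, AKR1C1 was at 0.665, 0.706 and 0.539 CPM, AKR1C2 at 0.0392, ALDH3A1 at 0.729 and ABCC2 at 0.356, and AKR1C3, GPX2 and UGT1A6 had no count. TXNRD1, the thioredoxin reductase gene, had 1 count in all.

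Of 23 glycolysis genes 19 were expressed (82.6%, against 56.1% of all coding symbols), summing to 22868 to 25375 CPM. Besides GAPDH and PKM, ENO1 was at 2911 ± 194 CPM and LDHA at 2759 ± 79.99 CPM, and HK1, the main hexokinase of most cells, had no count. Of 13 oxygen-sensing genes 10 were expressed (76.9%, against the same 56.1%). EPAS1 was at 279, 303 and 319.9 CPM and HIF1A at 117, 122 and 103, or 41.1 ± 2.85 and 22.1 ± 1.94 CPM per kb, with CITED2 (221 ± 1.93 CPM) and the prolyl hydroxylase gene EGLN2 (123 ± 8.43 CPM) also among the highest. HIF3A and EGLN3 had no count. Of 27 copper-handling genes 19 were expressed (70.4%, also against 56.1%). They included the copper-dependent collagen crosslinker gene LOXL2 at 903, 890.4 and 949 CPM and MT2A at 799, 684 and 888. SOD1 was at 253, 238 and 277 CPM and PAM at 90.4 ± 6.02. MT2A was lowest in control 2. The copper importer gene SLC31A1 was at 53.8 ± 3.78 CPM, and of the exporters ATP7A was at 0.230 CPM and ATP7B had no count.

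All 24 proliferation genes, which act in DNA replication and mitosis, were expressed (100%, against 56.1% of all coding symbols). PCNA was at 666, 619 and 651 CPM, TOP2A at 586, 589 and 474, TYMS at 396, 393 and 399 and RRM2 at 381, 404 and 373. TOP2A was lowest in control 3. Oncogenes were led by CCND1 (799.6 ± 78.2 CPM), MYC (361, 361 and 367) and CDK4 (196 ± 5.58). HRAS, MYCN and CCND2 had no count. Of 14 genes listed as brakes 10 were expressed (71.4%, against 56.1% of all coding symbols), with SMARCA4 at 106 ± 1.06 CPM and STK11 at 102 ± 15.6. MDM2, counted with them although it acts as an oncogene, was at 308 ± 37 CPM. RB1 straddled the threshold at 0.998, 1.41 and 0.779 CPM.

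CDKN2A and CDKN2B, neighbouring inhibitors of CDK4 and CDK6 on chromosome 9 that A549 is known to have lost, had no count in any library. The CDKN2A gene lies at chr9:21967753-21995301 and CDKN2B at chr9:22002903-22009363. MTAP, the adjacent gene of methionine salvage, had 33, 37 and 29 counts, or 1.57, 2.18 and 1.74 CPM. Within 1500000 bases of the start of CDKN2A, 23 coding symbols were listed and 5 were expressed, beside 56.1% of all coding symbols. The 5 were KLHL9 (30.6, 32.8 and 28.3 CPM), DMRTA1 (6.27 ± 0.678 CPM), IFNE (1.98 ± 0.790), MTAP and FOCAD (1.61 ± 0.213). The 18 at 0 counts were CDKN2A, CDKN2B, HACD4 and 15 interferon genes, which resting cells rarely transcribe. KLHL9 was thus the only one above 10 CPM, and counts of RNA do not tell a lost gene from a silent one.

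The hybrid was selected in medium that only cells able to salvage purines survive, a step that needs HPRT1. HPRT1 (chrX:134460153-134520513) was at 40.7, 38.6 and 39.9 CPM, with little spread. All 17 genes of purine salvage and the selection were expressed, against 56.1% of all coding symbols, with a median of 116 CPM. PNP was at 462 ± 21 CPM, IMPDH2 at 395 ± 26.3, TK1, the thymidine kinase used in the same selection, at 289 ± 17.1, and ADA at 220.0 ± 28.6. Per length HPRT1 stood at 24.5 ± 0.646 CPM per kb against a list median of 32.6.

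Of 203 genes of the machinery that every cell uses, 199 were expressed (98%, against 56.1% of all coding symbols), with a median of 210.5 CPM. The 199 included all genes of RNA polymerase II, the chaperonin, the proteasome and the spliceosome that were listed. The other 4 were AMD1 of polyamine synthesis with no count, CANX (calnexin) at 0.02 CPM, EIF3C at 0.114 CPM and HSP90B1, a chaperone of the endoplasmic reticulum, at 0.428, 0.353 and 0.240 CPM. In the same compartment P4HB was at 1614 ± 133 CPM and HSPA5 at 1514 ± 55.7 CPM. Of 38 cytoskeletal genes 36 were expressed (94.7%, against the same 56.1%), and STMN1, a tubulin regulator of dividing cells, was at 0.238 CPM and MYH10 at 0.316 CPM. The microRNA symbol MIR3917, which lies within the STMN1 gene on the same strand, was at 40.4 ± 2.26 CPM. Cells need several of the genes given here as not expressed. A gene listed at or near 0, such as STMN1, HK1 or TXNRD1, was therefore not read as silent, and the cause was not tested. The same limit holds for CDH1 and the other markers given at 0. Of 79 ribosomal protein genes 78 were expressed (98.7%, against 56.1% of all coding symbols), led by RPLP0 (2237, 1949 and 2291 CPM), and RPS29 was at 0.553 ± 0.185 CPM. Histone genes of S phase, whose messages carry no poly(A) tail, were expressed in 5 of 22 (22.7%, below the same 56.1%), with HIST1H1C highest at 16.2 ± 3.96 CPM.

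Part of the count went to symbols that overlap or copy other genes. Symbols that name a read-through of 2 neighbours numbered 123, of which 86 were expressed and 41 exceeded both of their parts, and they took 0.375% of the counts. BLOC1S5-TXNDC5 was at 671, 617 and 699 CPM against 55.5 CPM for TXNDC5, a disulfide isomerase gene. P2RX5-TAX1BP3 was at 229, 214 and 258 CPM against 0.210 for TAX1BP3, ATP6V1G2-DDX39B was at 161 ± 8.36 CPM against 1.12 for the helicase gene DDX39B, and C7orf55-LUC7L2 was at 91.5 ± 3.22 CPM while LUC7L2 had no count. Levels of such parts are uncertain, since the reads of a message that the symbols share can be given to either. Pseudogene symbols summed to more than the gene itself for 7 of the 201 list members that have a pseudogene symbol: RPL9, RPL21, RPL36A, RPL39, RPL41, RPS26 and RPS28. RPS28 was at 9.41, 7.29 and 9.34 CPM and its copy RPS28P7 at 233, 198 and 277 CPM. EEF1A1P5 was at 1385, 1306 and 1281 CPM beside EEF1A1 itself. Near-identical copies share reads, so the levels of these genes are uncertain.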

How the data were processed

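The deposited table gives whole-number counts per gene symbol, with 1 column per library, and only the 3 control columns were used (21049891, 16998936 and 16693713 counts). Reads were aligned with HISAT2 2.1.0 to GRCh38 and DESeq was used, per the submitters' processing notes. How reads were counted, on which annotation and with what strand rule is not given in the sources used here, so reads of overlapping or antisense genes may not be told apart. CPM were computed from the column totals, with no normalization between libraries, and lengths and coordinates came from GENCODE 29 (GRCh38), which may differ from the authors' annotation. Symbols matched RefSeq directly (40269) or by an older symbol (2013), and the 8859 unmatched ones held 0.389% of the counts. Exons of at least 200 bases were needed for CPM per kb. No test was run.

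The libraries, 25 gene lists (1013 distinct members) and thresholds were chosen with earlier results of these data known. The rule for named genes took the 20 highest by CPM, the 10 highest by CPM per kb, up to 4 of the highest members of each role in a list with members under 1 CPM, the 5 highest long noncoding RNAs, the 6 most variable genes of at least 10 CPM, and 15 genes of interest such as HPRT1 and CDKN2A. The list of mesenchymal genes, the gene families, read-through and pseudogene symbols, the neighbours of CDKN2A, the printed promoters, ERG, TMSB10, SLC31A1, SFTA1P, HLA-B, HLA-C, COL4A1, COL4A2, COL18A1 and some members at 0 were named after their values had been seen. Some genes that the rule names are not reported here.

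Alternatives were TMM factors (edgeR 4.0.16, R 4.3.3), DESeq2 1.42.0 size factors, totals without mitochondrial genes, thresholds of 0.5 and 5 CPM, the filterByExpr filter, ranks by CPM per kb with both lengths, and each library left out in turn. Tables were made in Python 3.11.15 with pandas 2.3.3, numpy 2.4.6 and scipy 1.17.1, and the calculation was tested on simulated data.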

Additional observations from a re-analysis of the deposited data

How the results depend on the processing

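Of 252 counts and shares recomputed under other settings, 243 stayed within 1.5 times the value given (counts) or within 1 SD (shares). Some of them could hardly move: symbols at 0 counts stay at 0 under any scaling, and shares with 1 library left out stay near the mean. The 243 therefore do not measure robustness, and the 9 that moved are given next. Totals without the mitochondrial genome raised the share of the top 10 genes to 6.83% and of the top 100 to 23.5%. Ranking by CPM per kb gave 5.39% and 19.8% for the genes then on top, and 5.39% and 19.7% with the longest transcript. At 5 CPM in every library, 3 lung and airway markers, 1 plasma protein gene and 2 histone genes counted as expressed. Expressed symbols then numbered 9854, against 13398 at 0.5 CPM, and the filterByExpr filter kept 13163. Leaving out each library in turn gave 12496 to 12521 expressed symbols, 29494 to 29882 at 0 counts, and a top 10 share of 6.43% to 6.63%. Of 35 genes compared under 6 settings each, 10 of 210 levels moved by more than 1 SD, all with mitochondrial genes left out of the total. Leaving out 1 of 3 libraries cannot shift a mean by 1 SD, and genes at 0 counts cannot move under any setting. The count of 10 is therefore no measure of stability for those values. No paired analysis was possible because the levels come from 1 group and from no test. Depth limits the low end: 5418 symbols had counts but no more than 3 in any library.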

Other observations

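Gene families listed after the values had been seen add to the picture of the line. Of 39 HOX genes, which set position along the body axis, 19 were expressed (48.7%, against 56.1% of all coding symbols), led by HOXB7 (32.5, 28.5 and 37.7 CPM), HOXD8 (28.2, 31.7 and 29.1 CPM) and HOXC6 (17.2 ± 2.06 CPM). Of 23 claudins, the sealing proteins of tight junctions, 4 were expressed (17.4%, against 56.1% of all coding symbols). They were CLDN11 (52.3, 52.5 and 49.2 CPM), CLDN12 (33.4 ± 5.01), CLDN15 (19.5 ± 2.14) and CLDN1 (17.7 ± 1.42). Of 332 solute carriers 164 were expressed (49.4%), with the glutamine transporter gene SLC38A2 highest at 854, 927 and 799.6 CPM, and of 507 ZNF zinc finger genes 306 were (60.4%), both near the 56.1%. Families of sensory, skin and immune cells were mostly at 0: 359 of 383 olfactory receptor genes, 87 of 93 keratin-associated protein genes, 35 of 36 beta-defensin genes and 421 of 440 antigen receptor V segments had no count. The share at 0 was 56.0% over all symbols and 27.0% over coding ones. The 3 expressed olfactory receptor genes were OR1J2 (6.72 ± 0.681 CPM), OR51B5 (4.50 ± 0.360) and OR51B4 (2.44 ± 0.609), and none reached 10 CPM.

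Symbols annotated as noncoding took a small share of the counts, with 0.804% in long noncoding RNA symbols and 0.953% in pseudogenes. The first class includes read-through symbols such as BLOC1S5-TXNDC5, and the second includes near-identical copies such as EEF1A1P5. Reads of both may come from coding messages, so the percentages are not shares of noncoding transcripts. Leaving aside read-through symbols, the highest long noncoding RNAs were LINC00657 (NORAD, which binds Pumilio proteins) at 516, 544 and 426 CPM, NEAT1 of paraspeckles at 322, 316 and 339 CPM, FGD5-AS1 at 262 ± 16.8 CPM and MALAT1 of nuclear speckles at 247, 237 and 266 CPM. By length NORAD stood at 92.8 ± 11.5 CPM per kb, above MALAT1 at 28.3 ± 1.68 and NEAT1 at 14.3 ± 0.521, by more than the SDs. NORAD was lowest in control 3 and MALAT1 highest there. Of 1870 microRNA gene symbols 53 were expressed (2.83%, against 24.2% of all symbols), led by MIR198 (88.4 ± 4.98 CPM). Of 393 small nucleolar RNA symbols 98 were (24.9%, near the same 24.2%), led by SNORD86 (93.8 ± 4.46 CPM). Both lie within longer messages, and poly(A) libraries do not measure mature small RNAs, so these values are not levels of the small RNAs themselves.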
